A study of Homo sapiens with 5 samples.

Results

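Long noncoding RNAs that act in the nucleus or are tied to the p53 response were followed in RPE1 cells treated with doxorubicin. The members were named by gene symbol and not by their values: NEAT1, MALAT1, PVT1, TP53TG1, PANDAR, LINC-PINT, MIR22HG and MIR17HG. All 8 had a row among the 26485 genes of the count table, and 7 of them had enough counts to be tested. The data are poly-A selected RNA-seq libraries from 18 h of exposure. There were 2 libraries of cells given DMSO, 2 of cells given doxorubicin at 0.2 uM and 1 of cells given doxorubicin at 0.34 uM. All cells were wild type RPE1, an established human retinal pigment epithelial line immortalised with telomerase. Doxorubicin is an anthracycline that enters DNA and traps topoisomerase II, and DMSO was its solvent. The doses are those of the titles and treatment labels, which the study's results also use. The treatment protocol among the labels prints 200 and 340 uM instead, 1000 times more. The comparison asked which of these RNAs differ in level between treated and control cells.

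Long noncoding RNAs are transcripts without a known protein product, and several of them work at the place where they are made. NEAT1 builds the paraspeckle, a nuclear body in which it is bound by SFPQ, NONO and other proteins. It has a short polyadenylated form and a long form, which a count per gene does not separate. MALAT1 sits in nuclear speckles, where splicing factors collect, and its mature end is a triple helix and not a poly-A tail. PVT1 lies beside MYC. TP53TG1, LINC-PINT and PANDAR have been described as induced through p53, the transcription factor that answers DNA damage, and PANDAR is encoded next to CDKN1A, the best known p53 target. MIR22HG and MIR17HG are spliced host transcripts from which microRNAs are cut.

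The mature microRNAs inside the host genes are shown because a change in a host count concerns these sequences, none of which the libraries measure. They are RefSeq sequences on GRCh38.p14, written 5′ to 3′ with the seed (bases 2 to 8) in capitals. The first comes from the MIR22HG span on the minus strand of chromosome 17 and the other 6 from the MIR17HG span on the plus strand of chromosome 13.
hsa-miR-22-3p: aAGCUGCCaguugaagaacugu
hsa-miR-17-5p: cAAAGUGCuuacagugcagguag
hsa-miR-20a-5p: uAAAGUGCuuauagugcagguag
hsa-miR-18a-5p: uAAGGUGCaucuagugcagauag
hsa-miR-19a-3p: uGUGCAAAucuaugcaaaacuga
hsa-miR-19b-3p: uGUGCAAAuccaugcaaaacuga
hsa-miR-92a-3p: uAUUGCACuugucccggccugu
miR-17-5p and miR-20a-5p share the seed AAAGUGC, and miR-19a-3p and miR-19b-3p share GUGCAAA. miR-18a-5p has AAGGUGC, miR-92a-3p has AUUGCAC and miR-22-3p has AGCUGCC, each alone among these arms. The microRNA genes MIR22, MIR17, MIR18A, MIR19A, MIR20A, MIR19B1 and MIR92A1 have rows of their own in the count table, and each held 0 counts in all 5 libraries. Libraries of this kind hold few RNAs as short as a microRNA, so these zeros say nothing about the mature products.

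The libraries held 23773061 to 36725345 counts, and 14187 genes passed the filter on low counts. Levels are given as CPM, counts scaled to a common library size (TMM). Of these, 4.02% (571 genes) differed between the 3 doxorubicin and the 2 DMSO libraries at an adjusted p under 0.01, with 183 higher and 388 lower. Over all genes the 2 DMSO libraries were far apart (chi-square per degree of freedom 117.2), as were the 2 libraries at 0.2 uM (75.33). The 0.34 uM library lay nearer to replicate 1 at 0.2 uM (9.012) than to replicate 2 (74.1). Of the retinal pigment epithelial markers, MITF (29.1 to 56.7 CPM) and OTX2 (23.5 to 29.4 CPM) were present in every library. The mature-function markers RPE65 (3 to 8 counts), RLBP1 (0 to 3 counts) and TYR (0 to 5 counts) were near 0. BEST1 held 14 to 142 counts and PMEL 5 to 46. Of the keratins, KRT8 was at 346 to 661 CPM and KRT18 at 238 to 515 CPM. Of the markers of other cells, EPCAM held 0 to 1 and PECAM1 3 to 13 counts. PTPRC, a leukocyte marker, held 5 and 7 counts with DMSO and 25, 53 and 72 with doxorubicin, and its part in the results was not tested.

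Among the 7 tested RNAs, TP53TG1 rose with doxorubicin and was the only member past the threshold, in edgeR's quasi-likelihood test over all 14187 genes, where 4.02% of genes passed it and 1.29% passed it as higher. Its level was 3.74-fold higher. NEAT1 had the next largest fold (2.68-fold) and missed the threshold with an adjusted p of 0.0304. In 5 of the 7 (NEAT1, PVT1, TP53TG1, LINC-PINT and MIR22HG) every doxorubicin library lay above every DMSO library, and in none did every one lie below. Over all tested genes the libraries of the groups did not overlap in 47.7%, with doxorubicin above in 24.3%. The median log2 fold change was 0.85 over the 7 members and 0.013 over all genes tested. MALAT1 and MIR17HG had overlapping groups and a wide gap between the DMSO libraries. In bulk RNA, fewer cells that express a gene and less of its RNA per cell cannot be told apart.

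**Figure D1:**
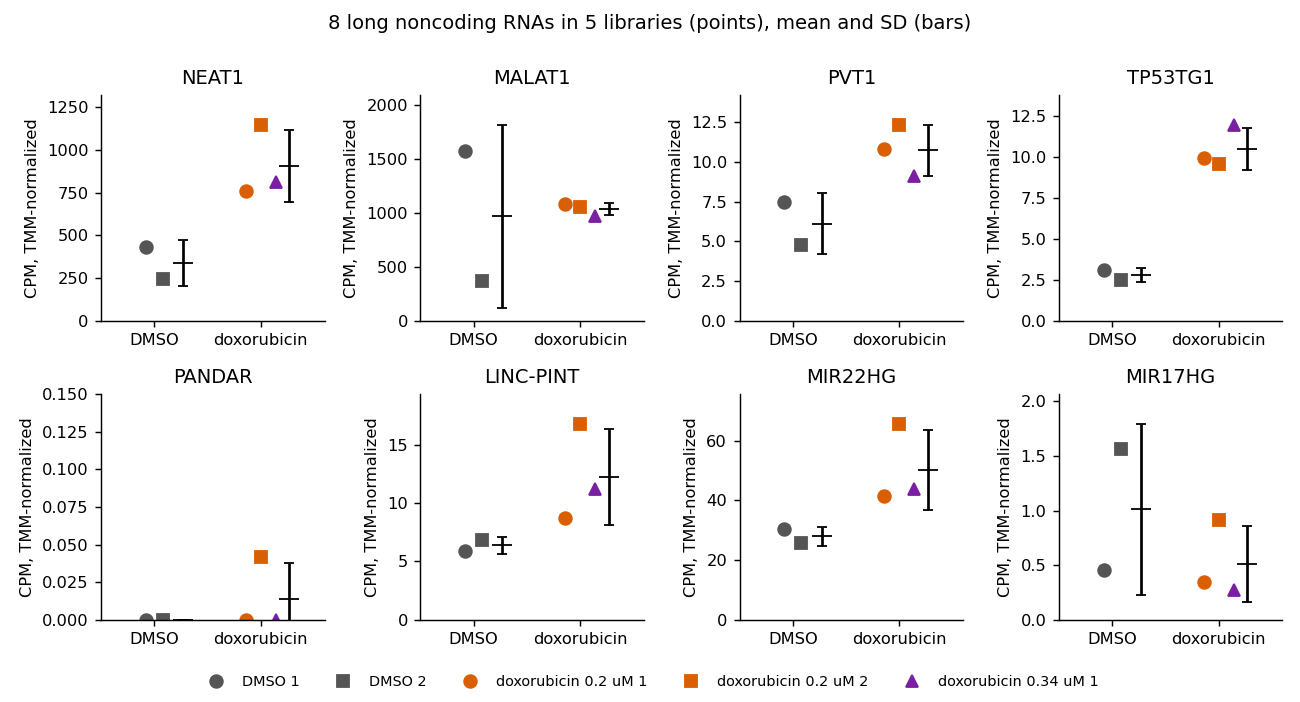
Level of each of the 8 long noncoding RNAs in each of the 5 libraries. The y axes give TMM-normalised CPM on linear scales that start at 0 and differ between panels, each point is a library, and the horizontal mark and vertical bar give the group mean and SD (2 DMSO and 3 doxorubicin libraries). TP53TG1 is at 2.51 and 3.09 CPM with DMSO and 9.56 to 12.0 CPM with doxorubicin, while the 2 DMSO points of MALAT1 (1573 and 367 CPM) lie on either side of all doxorubicin points.

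NEAT1 and MALAT1 are neighbours on chromosome 11, 52.2 kb apart on GRCh38.p14 (NEAT1 at chr11:65422798-65445540, MALAT1 at chr11:65497738-65506516). NEAT1 stood at 433 and 244 CPM in the DMSO libraries, at 758 and 1150 CPM at 0.2 uM and at 813 CPM at 0.34 uM. All 3 treated libraries were above both controls, with replicate 2 at 0.2 uM the highest and DMSO replicate 2 the lowest. The mean was 339 ± 133 CPM (SD, n = 2) with DMSO and 907 ± 213 CPM (SD, n = 3) with doxorubicin. The log2 fold change was 1.42 (SE 0.31, edgeR adjusted p = 0.0304). Over the 6 pairs of a treated and a control library the log2 difference ranged from 0.81 to 2.23. DESeq2 gave a log2 fold change of 1.41 with an adjusted p of 5.94e-05, and limma voom an adjusted p of 0.0237, so the call at 0.01 depended on the tool. By DESeq2 9.78% of the 20717 genes fitted passed 0.01.

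MALAT1, by contrast, did not separate the groups. It stood at 1573 CPM in DMSO replicate 1 and 367 CPM in DMSO replicate 2, against 1084, 1057 and 970 CPM in the treated libraries. The treated libraries were alike and lay between the 2 controls. The controls differed 4.28-fold, and 2.3% of tested genes were at least as far apart between these 2 libraries. The mean was 970 ± 852 CPM (SD, n = 2) with DMSO and 1037 ± 59.5 CPM (SD, n = 3) with doxorubicin, a log2 fold change of 0.096 (SE 0.52, edgeR adjusted p = 0.922). Without DMSO replicate 1 the log2 fold change of MALAT1 was 1.49 (adjusted p = 0.0109), and without DMSO replicate 2 it was -0.62 (adjusted p = 0.0545). TALAM1, the antisense RNA of the locus, and MASCRNA, the small RNA cut from the MALAT1 end, overlap MALAT1 in the annotation and are not analysed here. No source used here gives the strand setting of the counting, so MALAT1 counts may include antisense reads. The libraries were poly-A selected and mature MALAT1 has no poly-A tail, and the part of the selection in its counts was not tested.

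The relation of NEAT1 to MALAT1 within a library is free of library scaling. It is not free of the poly-A selection, since mature MALAT1 has no poly-A tail. How far the selection set the ratios, ranks and shares below was not tested. NEAT1 counts per MALAT1 count were 0.275 and 0.665 with DMSO, 0.699 and 1.09 at 0.2 uM and 0.837 at 0.34 uM. The treated ratios were above both control ratios, but DMSO replicate 2 lay close to the lowest treated library. Per kilobase of gene span (22.74 kb for NEAT1 and 8.779 kb for MALAT1), MALAT1 exceeded NEAT1 in every library. The excess was 9.41-fold and 3.89-fold with DMSO and 3.71-fold, 2.38-fold and 3.09-fold with doxorubicin. The short polyadenylated form of NEAT1 covers only part of its span, so dividing by the full span can itself set this order. Per kilobase of transcript the order is not known, because the counts do not separate the forms. Together the 2 RNAs took 0.130 ± 0.0940% (SD, n = 2) of all counts with DMSO and 0.193 ± 0.0263% (SD, n = 3) with doxorubicin. This difference of 0.0627 percentage points was smaller than the SD between the DMSO libraries, and ran from -0.00377 to 0.129 points when 1 library at a time was left out. NEAT1 ranked 340 and 696 among genes by count with DMSO and 151, 68 and 134 with doxorubicin. MALAT1 ranked 51 and 391 with DMSO and 90, 77 and 99 with doxorubicin.

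TP53TG1 (chr7:87325347-87345492) is named as a target of p53. It had 81 and 64 counts in the DMSO libraries, 256 and 230 at 0.2 uM and 434 at 0.34 uM. This corresponds to 3.09 and 2.51 CPM with DMSO, 9.90 and 9.56 CPM at 0.2 uM and 12.0 CPM at 0.34 uM. Every treated library was above both controls. The mean was 2.80 ± 0.412 CPM (SD, n = 2) with DMSO and 10.5 ± 1.30 CPM (SD, n = 3) with doxorubicin. The log2 fold change of TP53TG1 was 1.90 (SE 0.25, edgeR adjusted p = 0.00581), and the 6 pairs of libraries gave 1.61 to 2.22. DESeq2 gave an adjusted p of 9.45e-10 and limma voom 0.00714. With any 1 library left out the log2 fold change of TP53TG1 was 1.74 to 2.06 and the adjusted p 0.0170 to 0.0382, so no fit of this kind to 4 libraries made the call at 0.01. The annotation shows no gene overlapping TP53TG1.

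TP53TG1 shares its promoter region with CROT, which encodes a peroxisomal carnitine octanoyltransferase and begins 172 bp away on the other strand. The promoter is shown because its gene rose and the partner can be read beside it. The sequence is RefSeq's window of 250 bases before to 50 after the TP53TG1 start, chr7:87345443-87345742 on GRCh38.p14, minus strand. Capitals mark CCAAT boxes, which here read ATTGG, and the longest stretch found at least 3 times in the window, AGGGTCCCGCCCC, which was chosen after the sequence was read.
TP53TG1 promoter: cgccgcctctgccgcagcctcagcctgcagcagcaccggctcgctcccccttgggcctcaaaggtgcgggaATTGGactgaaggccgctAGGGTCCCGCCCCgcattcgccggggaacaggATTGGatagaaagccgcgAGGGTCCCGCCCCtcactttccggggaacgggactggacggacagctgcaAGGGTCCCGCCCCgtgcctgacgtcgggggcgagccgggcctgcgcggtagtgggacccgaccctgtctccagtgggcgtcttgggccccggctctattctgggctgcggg
The window is 70.7% G or C, against a median of 58.7% over 35116 RefSeq promoters. CCAAT occurs in it 2 times, starting 179 and 129 bases before the TP53TG1 start, and in 34.61% of all promoters on either strand. The repeated stretch of 13 bases starts 161, 111 and 61 bases before the start, so that the 3 copies are 50 bases apart, as are the 2 CCAAT boxes. It occurs in 9 of the 35116 promoters (0.02563%), and only the overlapping windows of TP53TG1 and CROT hold 3 copies. No p53 half-site was found in these letters, a decamer present in 6.632% of promoters. CROT stood at 13.4 and 15.4 CPM with DMSO, 23.6 and 23.6 CPM at 0.2 uM and 24.1 CPM at 0.34 uM. Its groups did not overlap, and the log2 fold change of CROT was 0.72 (SE 0.16, edgeR adjusted p = 0.0343), short of the threshold. DESeq2 gave CROT an adjusted p of 0.00299.

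LINC-PINT (chr7:130877562-131109925) stood at 5.87 and 6.85 CPM with DMSO, 8.74 and 16.8 CPM at 0.2 uM and 11.2 CPM at 0.34 uM. All treated libraries were above both controls, but the 2 libraries at 0.2 uM differed 1.91-fold from each other. The mean was 6.36 ± 0.693 CPM (SD, n = 2) with DMSO and 12.2 ± 4.13 CPM (SD, n = 3) with doxorubicin. The log2 fold change of LINC-PINT was 0.94 (SE 0.32, edgeR adjusted p = 0.0977, DESeq2 adjusted p = 0.0340), which did not pass. LINC-PINT also starts head to head with a coding gene, MKLN1, which encodes muskelin, a subunit of the CTLH ubiquitin ligase, and lies 169 bp away. RefSeq has other LINC-PINT windows, and that at chr7:130913261-130913560 holds CCAAT and the E-box form CACGTG, 145 and 82 bases before its start. The window around the start beside MKLN1 is shown for comparison with the TP53TG1 promoter. It is chr7:131109876-131110175, minus strand, and holds the MKLN1 start.
LINC-PINT promoter: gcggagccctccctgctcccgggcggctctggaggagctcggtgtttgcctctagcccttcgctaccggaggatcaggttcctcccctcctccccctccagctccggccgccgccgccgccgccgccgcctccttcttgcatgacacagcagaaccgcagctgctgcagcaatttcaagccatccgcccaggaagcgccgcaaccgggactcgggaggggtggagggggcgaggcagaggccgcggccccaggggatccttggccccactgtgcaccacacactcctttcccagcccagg
This window is 70.3% G or C and held neither a CCAAT box, the E-box form named above, a TATA box nor a p53 half-site, so it has no capitals. Other forms of the E-box were not searched for. MKLN1 stood at 56.0 and 56.9 CPM with DMSO and 56.8, 69.7 and 56.8 CPM with doxorubicin, with overlapping groups and a log2 fold change of 0.11 (SE 0.16, edgeR adjusted p = 0.672).

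PANDAR (chr6:36673621-36675126) could not be tested. It had 1 count in replicate 2 at 0.2 uM and 0 counts in the other 4 libraries. A count of 0 allows a level of up to 0.0826 to 0.117 CPM in these 4, and a difference of PANDAR below such levels was not detectable at this depth. CDKN1A, which encodes the CDK inhibitor p21 and begins 1337 bp from PANDAR, stood at 294 and 258 CPM with DMSO, 2975 and 2366 CPM at 0.2 uM and 3358 CPM at 0.34 uM. All treated libraries were far above the controls, and CDKN1A rose by 3.39 on the log2 scale (SE 0.23, edgeR adjusted p = 0.000768). LAP3P2, a pseudogene, overlaps PANDAR in the annotation and is not analysed here.

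PVT1 (chr8:127794524-128101256) stood at 7.48 and 4.74 CPM with DMSO, 10.8 and 12.3 CPM at 0.2 uM and 9.09 CPM at 0.34 uM. The groups did not overlap, but the 0.34 uM library was near the higher control. The mean was 6.11 ± 1.94 CPM (SD, n = 2) with DMSO and 10.7 ± 1.61 CPM (SD, n = 3) with doxorubicin, and the log2 fold change of PVT1 was 0.81 (SE 0.28, edgeR adjusted p = 0.103, DESeq2 adjusted p = 0.0427). MYC, the oncogenic transcription factor encoded 51.6 kb from PVT1, was at 95.4 ± 21.7 CPM (SD, n = 2) with DMSO and 96.2 ± 16.5 CPM (SD, n = 3) with doxorubicin, a log2 fold change of 0.012 (SE 0.21, adjusted p = 0.978). MIR1204, annotated inside the PVT1 span, had a mean of 0.117 CPM with DMSO and 0.472 CPM with doxorubicin (log2 fold change 1.97, SE 0.70, adjusted p = 0.111), and reads of the 2 features can come from the same transcript. The nearest tested gene on the far side of PVT1, 304 kb away, is the noncoding LINC00824, with 4 and 0 counts in the DMSO libraries and 36, 93 and 98 in the treated libraries. Its scaled count ratio was 34.1 (95% counting interval 13.1 to 126), with an adjusted p of 0.0186. LINC00824 passed the filter on low counts only through its treated libraries, so these values are no independent support for a rise. The interval leaves out the spread between libraries.

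Neither of the 2 host genes of microRNAs passed the threshold. MIR22HG (chr17:1711504-1716210) stood at 30.3 and 25.7 CPM with DMSO, 41.3 and 65.7 CPM at 0.2 uM and 43.9 CPM at 0.34 uM. All treated libraries were above both controls, and replicate 2 at 0.2 uM was the highest, as it was for NEAT1 and LINC-PINT. The mean was 28.0 ± 3.28 CPM (SD, n = 2) with DMSO and 50.3 ± 13.4 CPM (SD, n = 3) with doxorubicin. The log2 fold change of MIR22HG was 0.85 (SE 0.24, edgeR adjusted p = 0.0663, DESeq2 adjusted p = 0.0132), which did not pass. WDR81, a gene of endosomal traffic that begins 313 bp from MIR22HG, had a log2 fold change of 0.87 (SE 0.28, adjusted p = 0.0826). The MIR22HG promoter window held CCAAT 2 times, 183 and 88 bases before the start.

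MIR17HG (chr13:91347687-91354577), the host of the miR-17-92 cluster, was near the lower limit of what could be tested. It had 12 and 40 counts in the DMSO libraries, 9 and 22 at 0.2 uM and 10 at 0.34 uM, or 0.458 and 1.57 CPM, 0.348 and 0.915 CPM and 0.276 CPM. In each condition with 2 libraries replicate 2 was the higher, and the groups overlapped. The mean was 1.01 ± 0.784 CPM (SD, n = 2) with DMSO and 0.513 ± 0.350 CPM (SD, n = 3) with doxorubicin, and the log2 fold change of MIR17HG was -1.00 (SE 0.72, edgeR adjusted p = 0.398). Without DMSO replicate 2 it was 0.11 (adjusted p = 0.950). Among the 9 windows of the 5 members that had any, only that of MIR17HG held a match to the p53 half-site, 43 bases before the start. This decamer is present in 6.632% of all promoters. Of 6 tested genes known to bind or drive this host, E2F1 and E2F2, transcription factors of S phase entry, fell past the threshold. Over all genes tested 4.02% passed it in either direction. The other 4 were not called, with log2 fold changes of 0.61 for CCND1, 0.14 for MAX, 0.012 for MYC and -0.24 for E2F3. Over the 6 genes 3 fold changes were positive and 3 negative, with a median of -0.12. E2F1 was at 18.9 and 42.4 CPM with DMSO and 4.79, 6.28 and 3.94 CPM with doxorubicin, and fell by 2.62 on the log2 scale (SE 0.37, adjusted p = 0.00772). E2F2 was at 5.99 and 17.2 CPM with DMSO and 0.657, 1.29 and 0.551 CPM with doxorubicin, and fell by 3.81 (SE 0.56, adjusted p = 0.00827). For both, DMSO replicate 2 was the higher control, as it was for MIR17HG. Without DMSO replicate 1 a single gene of these 6 was called, and without any other single library none was.

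**Figure D2:**
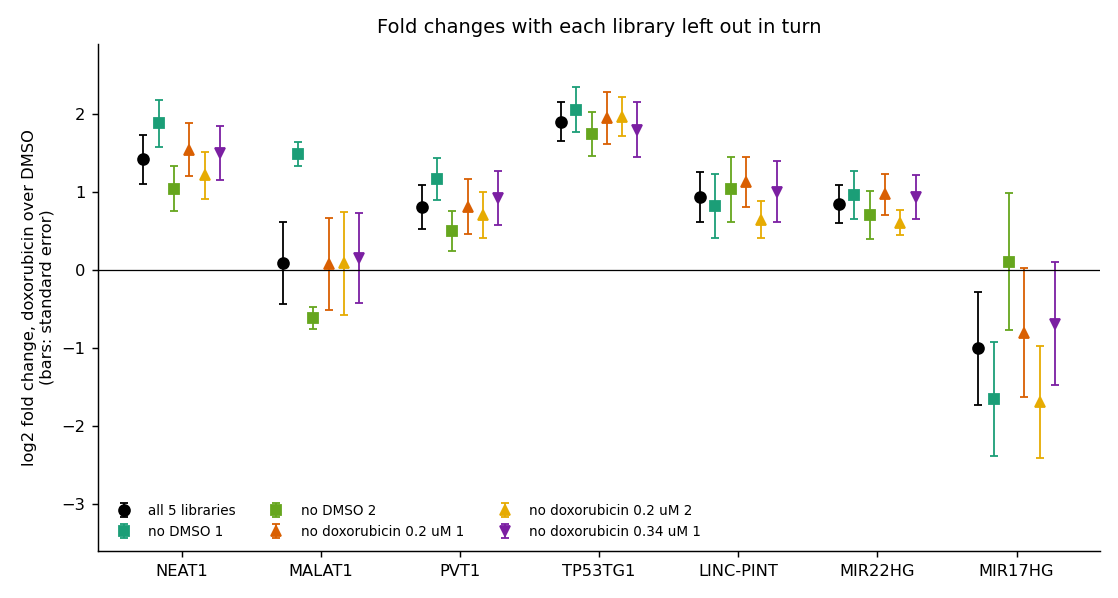
Log2 fold change of each tested member, doxorubicin over DMSO, with all 5 libraries (black) and after leaving out 1 library at a time (colours). Bars are standard errors from edgeR. TP53TG1 stays between 1.74 and 2.06 and NEAT1 between 1.05 and 1.88, while MALAT1 runs from -0.62 to 1.49 and MIR17HG from -1.69 to 0.11.

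The neighbours of the members were set beside them. The 14 nearest tested genes that are not members, at most 1 on each side, had a median log2 fold change of 0.21, and 11 of them were above 0. CDKN1A was the only neighbour past the threshold, again against 4.02% of all tested genes, and in 9 of the 14 the groups did not overlap, against 47.7% of all tested genes. FRMD8, which encodes a partner of the iRhom proteins and ends 9.27 kb from NEAT1, had a log2 fold change of 0.96 (SE 0.23, adjusted p = 0.0397, DESeq2 adjusted p = 0.00280). GPC6, a glypican gene 1862 kb from MIR17HG, had -1.67 (adjusted p = 0.0202), and SLITRK5 on its other side had -0.21 (adjusted p = 0.647). Other neighbours were SRSF3 at -0.86 (adjusted p = 0.0380), TMEM243 at 0.46 (adjusted p = 0.301), COPG2 at 0.18 (adjusted p = 0.441) and TLCD2 at 0.24 (adjusted p = 0.699). No neighbour fell past the threshold.

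**Figure D3:**
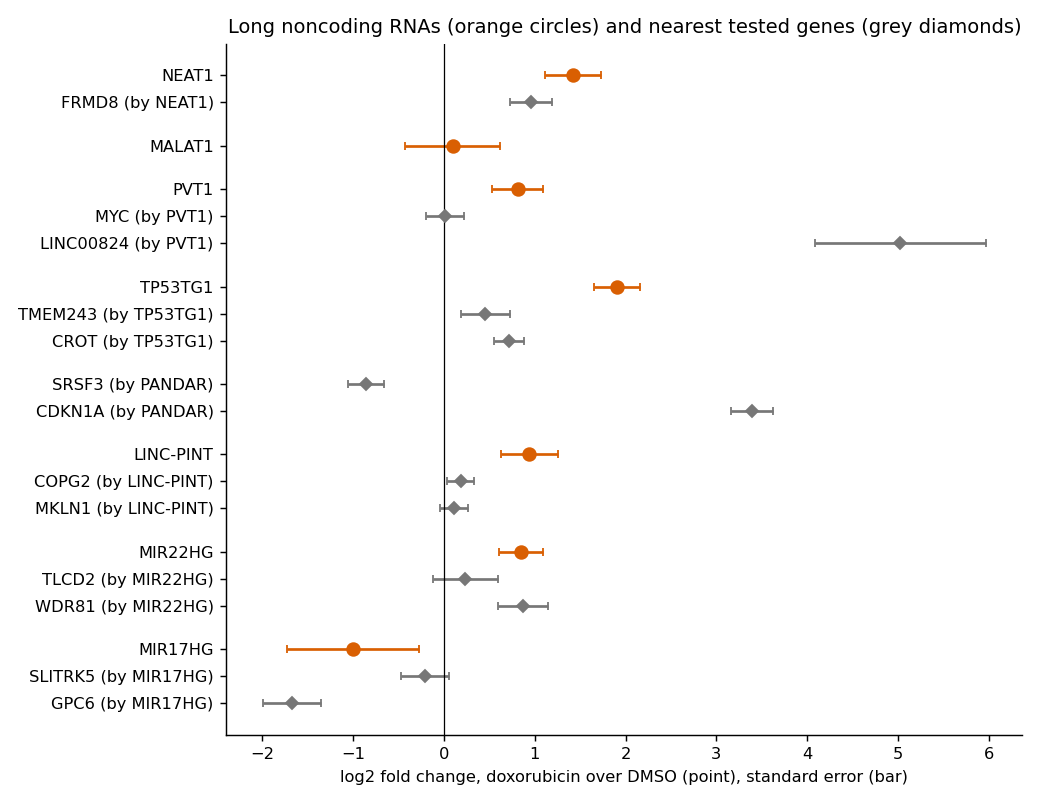
Log2 fold change (doxorubicin over DMSO) and standard error of each tested member (orange circles) and of 13 nearest tested genes (grey diamonds), grouped by locus. TP53TG1 (1.90) lies above CROT (0.72), PVT1 (0.81) above MYC (0.012), and CDKN1A (3.39) stands beside the untested PANDAR.

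Between the doses, 0 of the 7 tested members were called by edgeR, DESeq2 or limma voom, and 0 had an unadjusted edgeR p under 0.05. Of all 14187 genes, edgeR called 0%, and 22 had an unadjusted p under 0.05. This comparison could hardly single out any gene, so the counts of 0 say little about the members. The 0.34 uM condition has 1 library, which was assumed to vary like the others. The log2 difference, 0.34 minus 0.2 uM, was 0.30 for TP53TG1 (95% confidence interval -0.61 to 1.21) and -0.23 for NEAT1 (-1.27 to 0.80). It was -0.14 for MALAT1 (-1.85 to 1.57), -0.35 for PVT1 (-1.36 to 0.66), -0.19 for LINC-PINT (-1.31 to 0.93), -0.29 for MIR22HG (-1.13 to 0.55) and -1.18 for MIR17HG (-3.71 to 1.36). Every interval held 0 and reached at least 0.55 from it on both sides, so these data do not show that the doses act alike. Over all genes the 0.34 uM library lay nearer to replicate 1 at 0.2 uM, so dose and replicate cannot be told apart. Against replicate 1 alone the log2 difference was 0.10 for NEAT1, 0.35 for LINC-PINT and 0.086 for MIR22HG. Against replicate 2 alone it was -0.50, -0.59 and -0.58. The other tested members kept their sign against both replicates.

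Genes related to the members by function were counted with the same test. Of 21 tested coding genes of the p53 pathway, 13 rose and 0 fell, with a median log2 fold change of 2.16. The largest of the called changes were in FDXR (3.75), BTG2 (3.53), TP53I3 (3.51), CDKN1A (3.39) and BBC3 (2.98), which encode a mitochondrial reductase, an antiproliferative factor, a quinone oxidoreductase, p21 and the death protein PUMA. The count of 13 fell to 4 without DMSO replicate 1, 1 without DMSO replicate 2 and 8 without replicate 2 at 0.2 uM. Of 16 other long noncoding RNAs linked to p53, 10 were in the table and 7 were tested, and edgeR called 0 of them while DESeq2 called 3 of 9. DESeq2 called 9.78% of all 20717 genes it fitted. An unadjusted p under 0.05 was found in 4 of these 7 noncoding RNAs, against 30.8% of all genes tested. The median log2 fold change of the 7 was 0.44, and 0.16 without replicate 2 at 0.2 uM.

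Of the 19 tested proteins of paraspeckles, the bodies NEAT1 builds, every gene had a negative fold change, with a median of -0.62, against 0.013 over all genes tested. DAZAP1, an RNA-binding protein, was the single one past the threshold, which 4.02% of all genes tested passed in either direction. It was at 181 and 170 CPM with DMSO and 86.6, 91.0 and 73.9 CPM with doxorubicin, and fell by 1.06 on the log2 scale (SE 0.15, adjusted p = 0.00716). SFPQ, a core protein that NEAT1 binds, was at 513 and 458 CPM with DMSO and 220, 256 and 188 CPM with doxorubicin (log2 fold change -1.13, SE 0.18, adjusted p = 0.0104). NONO, its partner, had -0.62 (SE 0.16, adjusted p = 0.0457), and PSPC1, the third protein of that family, had -0.36 (SE 0.15, adjusted p = 0.161). In all 3 the treated libraries were below both controls, the opposite order from NEAT1. Of the 19, 17 lay below in this way. Over all tested genes the groups did not overlap in 47.7%, with doxorubicin above in 24.3% and below in the rest of these. The NEAT1 count does not separate its short and long forms, and paraspeckles themselves were not measured. DESeq2 called 10 of the 19 lower, and with any 1 library left out edgeR called 0. Over all 20717 genes that DESeq2 fitted, 9.78% passed 0.01 in either direction. Without the 0.34 uM library, 18 of the 19 fold changes were negative.

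Of the 20 tested proteins of nuclear speckles, where MALAT1 resides, edgeR called 0 and DESeq2 5, all lower, and 10 had an unadjusted p under 0.05, against 30.8% of all genes tested. Their median log2 fold change was -0.42, with 17 negative. Of 13 genes that process or modify noncoding RNAs, edgeR called 0 and DESeq2 2. The 13 include the microRNA pathway genes DICER1, DROSHA, DGCR8, XPO5 and AGO2. Over all 20717 genes that DESeq2 fitted, 9.78% passed 0.01 in either direction. Of these 13, 4 had an unadjusted p under 0.05, the same share as over all genes tested (30.8%), and the median was -0.26, and -0.16 without DMSO replicate 2. Over all related genes together, 16 of 115 tested were called, 13 higher and 3 lower, against 4.02% of all genes tested.

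**Figure D4:**
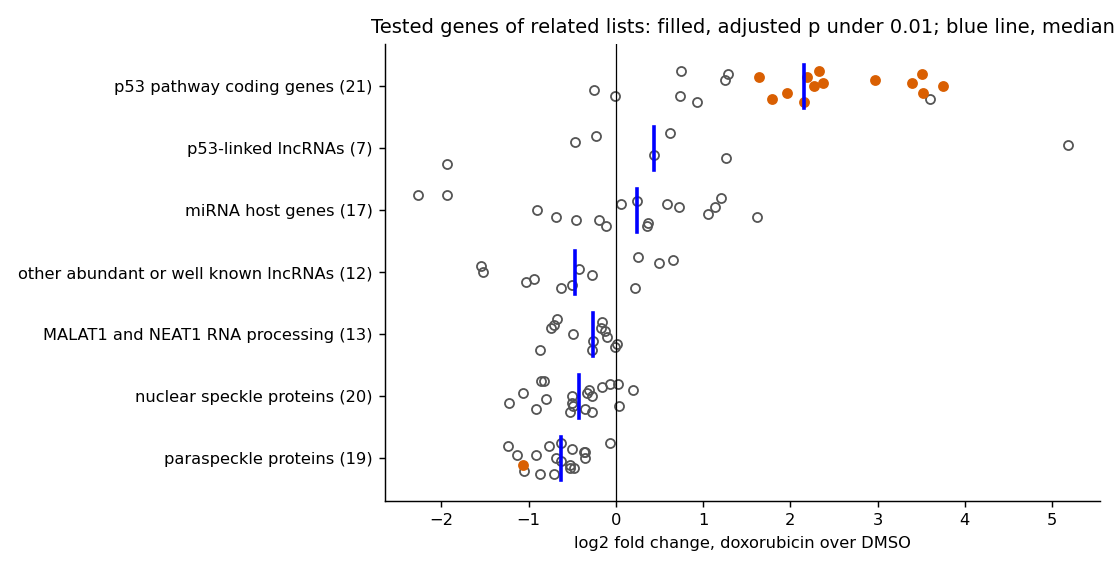
Log2 fold change (doxorubicin over DMSO) of each tested gene in 7 of the 8 related lists, with the number tested in parentheses. Filled points have an edgeR adjusted p under 0.01 and the blue line is the list median. The list of MALAT1 and NEAT1 RNA processing also holds genes of the microRNA pathway. The p53 pathway coding genes centre on 2.16 with 13 filled points, and all 19 paraspeckle protein genes lie below 0 with 1 filled point.

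The genes whose pattern over the 5 libraries lay closest to each member were found by the root mean square difference of centred log2 CPM, a description in which 5 libraries and their scaling are shared. For NEAT1 they were STAT4 (0.0687) and TSGA10 (0.105), and for MALAT1 FRMPD3 (0.0589) and DIO2 (0.0799). For TP53TG1 they were TEK (0.0881) and TRAF4 (0.100), and for PVT1 SNORD45A (0.0278) and LOC101928979 (0.0639). For LINC-PINT they were DYRK3 (0.0576) and THRB (0.0747). For MIR22HG they were LTB4R (0.0485) and MOSPD1 (0.0711), and for MIR17HG CCDC88C (0.0783) and GLDC (0.0892). TRAF4 was the only gene of these past the threshold, with a log2 fold change of 1.70 (edgeR adjusted p = 0.00355).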

How the data were processed

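The authors extracted RNA from RPE1 cells, selected poly-A RNA, made stranded libraries, aligned the reads with STAR to hg38 and counted them per gene with featureCounts. No source used here gives versions, the strand setting or the treatment of reads with several matches. The deposited table holds raw counts per gene. Another table holds the authors' own DESeq2 comparison and was not used. The authors describe the libraries as biological replicates and pooled the doses, and so the 3 doxorubicin libraries were compared with the 2 DMSO libraries. Genes with too few counts were removed (edgeR filterByExpr, minimum count 10, minimum total 15). Counts were scaled by TMM and tested with edgeR 4.0.16 (quasi-likelihood, R 4.3.3), with Benjamini-Hochberg adjustment over all genes tested and a threshold of 0.01. CPM are TMM-normalised and unlogged. Standard errors were taken from the fold change and the F statistic. The doses were compared in a fit of 3 conditions. DESeq2 1.42.0, limma voom 3.58.1, other scaling, no filter, thinned counts and leaving out each library were alternatives. Intervals and limits on counts cover counting error only, and reads carried no molecular identifiers. The scripts were tested on simulated data.

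The genes named are every member, the nearest tested gene on each side and overlapping tested genes, the called genes of each related list (at most 5), MYC, CDKN1A, E2F1, SFPQ, NONO and PSPC1, and the 2 genes nearest in pattern to each member. MEG3 and other genes named beyond these were chosen after their values were seen. Some genes that the rule names are not reported here. The members and lists were chosen with earlier results of these data known. Gene positions, microRNAs and promoters come from RefSeq on GRCh38.p14, in which 5 of the 8 members had at least 1 promoter window that could be matched.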

Additional observations from a re-analysis of the deposited data

How the results depend on the processing

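TP53TG1 was called under 9 of the 15 settings and NEAT1 under 4, each at the threshold of the setting, and their fold changes were positive under all of them. The number of members called was 2 (TP53TG1 and NEAT1) with DESeq2, with no filter on low counts and at a threshold of 0.05, and 0 in the fit of 3 conditions. With each library left out in turn it was 0 to 0. Where that leaves 1 DMSO library, it was assumed to vary like the others. Related genes called were 41 with DESeq2, 30 with no filter and 40 at a threshold of 0.05, and 1 to 12 with each library left out. The count over all genes was 2026 with DESeq2, 1020 with no filter, 1927 at 0.05, 323 in the fit of 3 conditions and 49 to 215 with a library left out. With 1 library left out, the log2 fold change ran from -0.62 to 1.49 for MALAT1 and from -1.69 to 0.11 for MIR17HG. MALAT1 reversed to -0.62 and MIR17HG to 0.11 without DMSO replicate 2, the higher control of MIR17HG and the lower of MALAT1. Fewer libraries and, in the fit of 3 conditions, fewer degrees of freedom accompany the lower counts, and beyond that the cause was not tested. With 2 control libraries, a replicate spread as large as that of MALAT1 limits what can be called, and PANDAR is below the depth.

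The titles number only the second library of DMSO and of 0.2 uM and name no shared batch, and same-numbered libraries deviated together (r = 0.528 across 14187 genes, 2 pairs). With the replicate number as a block, in the DMSO and 0.2 uM libraries, 2 members, 29 related genes and 1249 genes in all were called. Without the block the same libraries gave 0 members, 9 related genes and 178 genes in all. Fewer libraries alone thus did not always go with fewer calls, and why the counts differ was not tested. NEAT1 then had a log2 fold change of 1.52 (edgeR adjusted p = 0.000553) and TP53TG1 1.81 (adjusted p = 0.000609).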

Other observations

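Of the 7 tested p53-linked noncoding RNAs, the groups did not overlap in 5, with doxorubicin above in 3 and below in 2. Over all tested genes they did not overlap in 47.7%, with doxorubicin above in 24.3%. None of the 7 passed the threshold of 0.01 in edgeR. LINC01021, also described as a p53-induced noncoding RNA, had 0 and 1 counts with DMSO and 12, 35 and 25 with doxorubicin, a scaled count ratio of 43.2 (95% counting interval 7.51 to 1730, adjusted p = 0.0245). LINC01021 passed the filter on low counts only through its treated libraries, so these values are no independent support for a rise. The interval leaves out the spread between libraries. MEG3, an imprinted noncoding RNA, stood at 69.7 and 45.4 CPM with DMSO and 113, 170 and 131 CPM with doxorubicin, a log2 fold change of 1.26 (SE 0.26, adjusted p = 0.0246). LINC00657 had 0.62 (adjusted p = 0.0583). CDKN2B-AS1, the antisense RNA of the CDKN2B locus, had 18 and 13 counts with DMSO and 5, 4 and 4 with doxorubicin (log2 fold change -1.93, SE 0.52, adjusted p = 0.0542), and DANCR had -0.47 (adjusted p = 0.174). Outside that list DLEU2, host of miR-15a and miR-16-1, was at 4.92 and 5.01 CPM with DMSO and 1.66, 1.79 and 1.65 CPM with doxorubicin, a log2 fold change of -1.54 (SE 0.26, adjusted p = 0.0127).

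Among the other host genes of microRNAs, 35 were in the table and 17 were tested. edgeR and DESeq2 called 0 of them, and 4 had an unadjusted p under 0.05 (30.8% of all genes tested did). The groups did not overlap with doxorubicin above in 4 and below in 3. Of all tested genes 47.7% did not overlap, and 24.3% had doxorubicin above. The median log2 fold change was 0.24, and ran from -0.18 (without DMSO replicate 2) to 0.37 with 1 library left out. MIRLET7BHG was at 4.08 and 3.96 CPM with DMSO and 6.73, 6.57 and 6.70 CPM with doxorubicin (log2 fold change 0.73, SE 0.22, adjusted p = 0.0760). MIR155HG, host of an immune microRNA, was at 1.26 and 3.25 CPM with DMSO and 0.425, 0.665 and 0.661 CPM with doxorubicin (log2 fold change -1.94, SE 0.50, adjusted p = 0.0499). MIR31HG was at 25.7 and 42.9 CPM with DMSO and 20.3, 19.2 and 15.5 CPM with doxorubicin (log2 fold change -0.91, SE 0.25, adjusted p = 0.0597). Of 12 other well known noncoding RNAs tested, DLEU2 included, edgeR called 0 and DESeq2 1, 4 had an unadjusted p under 0.05, a share close to that of all genes tested, and the median was -0.47. DESeq2 called 9.78% of all 20717 genes it fitted.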
